A study of Mus musculus with 16 samples.

Results

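The S100a genes encode small calcium-binding proteins, and 10 of them were followed here (S100a1, S100a4, S100a6, S100a7a, S100a8, S100a9, S100a10, S100a11, S100a14 and S100a16) among the 22180 genes that the array names by a single symbol. They were chosen by name, with measured levels and differences of these arrays in view, and taken with every probe set that carries only that symbol, which gave 1 probe set for each gene. S100a7a was already known to be among the largest rises in co-cultured epithelium, so its values are given as a description with no test, and counts of calls run over the other 9 genes.

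The arrays hold cells of the small intestine of C57Bl/6 mice, all labelled male and 8 to 10 weeks old. Wild-type crypt epithelium grown as organoids in Matrigel, a basement membrane gel, was profiled alone and after indirect co-culture with intestinal myofibroblasts (2 animals, P28 and P30, in each condition). Wild-type myofibroblasts, stromal cells that contract and lay down matrix, were measured alone and after co-culture with epithelium (3 animals, Pl_I, Pl_II and Pl_III, in each condition). In co-culture the fibroblasts sat on a Transwell insert with 0.4 µm pores above the organoids for 24 h, so the cell types shared medium without touching. Adenoma cells came from 4 animals (P21, P23, P34 and P36; 6 arrays) with the genotype Apc+/1638N, a truncating allele of the Wnt pathway inhibitor Apc. The labels mark each adenoma sample with n = 3 and do not say what was counted, and the culture protocol given describes wild-type crypts only. The references for adenoma were therefore the epithelial organoids, and wild-type tissue was not analysed here.

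S100 proteins work as dimers that open a binding face when calcium rises. Inside the cell they bind annexins, the giant scaffold protein Ahnak, the heavy chain of non-muscle myosin and other targets, and some are released and bind cell surface receptors such as Ager (RAGE) and Tlr4. S100a8 and S100a9 form calprotectin, the metal-sequestering protein of neutrophils and inflamed epithelium. In the mouse all S100a genes lie on chromosome 3, beside and among the genes of the epidermal differentiation complex.

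The sequences upstream of 4 members are shown because the results turn on these genes. They are the 250 bases before the RefSeq start site (table build GRCm38.p6, all on the plus strand of chromosome 3) of S100a11 and S100a6, which were called in co-cultured epithelium, of S100a7a, and of S100a8, which stood highest in fibroblasts. The sources used here do not give the build behind the array values. Capitals mark the motifs searched on both strands, namely AP-1 (TGANTCA), TEAD (GGAATG), C/EBP (TTNNGNAA) and the TATA box (TATAAA).
S100a11, chr3:93520246-93520495: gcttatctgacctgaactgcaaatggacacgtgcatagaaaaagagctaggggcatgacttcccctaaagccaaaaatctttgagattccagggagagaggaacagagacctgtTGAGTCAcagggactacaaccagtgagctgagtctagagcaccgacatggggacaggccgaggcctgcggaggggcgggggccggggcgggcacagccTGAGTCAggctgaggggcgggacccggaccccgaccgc
S100a6, chr3:90612644-90612893: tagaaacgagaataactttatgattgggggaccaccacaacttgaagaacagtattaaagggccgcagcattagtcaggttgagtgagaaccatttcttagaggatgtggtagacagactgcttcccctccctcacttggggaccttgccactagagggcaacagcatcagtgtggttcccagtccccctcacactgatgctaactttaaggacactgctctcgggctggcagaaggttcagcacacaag
S100a7a, chr3:90654052-90654301: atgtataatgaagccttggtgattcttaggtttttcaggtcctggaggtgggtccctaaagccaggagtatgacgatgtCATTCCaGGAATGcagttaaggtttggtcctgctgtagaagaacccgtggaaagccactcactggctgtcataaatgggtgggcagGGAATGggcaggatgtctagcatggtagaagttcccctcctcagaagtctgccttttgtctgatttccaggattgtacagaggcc
S100a8, chr3:90668821-90669070: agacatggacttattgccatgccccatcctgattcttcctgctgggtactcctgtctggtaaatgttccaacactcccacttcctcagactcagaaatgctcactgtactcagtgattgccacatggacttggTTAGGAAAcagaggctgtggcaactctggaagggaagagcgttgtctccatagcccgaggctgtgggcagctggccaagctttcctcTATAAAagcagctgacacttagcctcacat

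S100a11 held 2 AP-1 matches, at -136 to -130 and -38 to -32 from the start, and 0.34% of the 32851 windows in the table held 2 or more. S100a7a held 3 TEAD matches, starting at -171, -164 and -85, against 0.09% of windows with 3 or more. The minimum counts behind both shares equal those found in these windows, and the motifs were chosen with earlier results known. Both shares are therefore a description and support nothing. The S100a6 window held none of the 4 motifs. S100a8 had a TATA box at -30 to -25 and a C/EBP match at -117 to -110. Of the 10 members, 8 had a window in the table, and S100a10 and S100a14 were not listed. Of those 8 genes, 2 held AP-1, 1 TEAD, 2 C/EBP and 2 the TATA box in at least 1 window, and the shares of all windows were 6.7%, 12.6%, 36.8% and 12.4%. AP-1 is the Fos and Jun dimer, TEAD factors are the DNA-binding partners of YAP, and C/EBP factors act in myeloid cells. A match is a stretch of letters, and nothing was measured of binding.

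Values are log2 probe set levels, and differences are log2 differences ± SE from limma, called at an adjusted p under 0.05 (Benjamini-Hochberg over the 18095 genes tested). Array medians lay between 3.48 and 3.58, and with 2 to 4 animals a group the number of arrays limits precision. A level of 2.67, the 30th percentile of probe set means, served as the dim level. Levels are compared between samples of a gene, never between genes. Epithelial and fibroblast markers followed the labelled cell types. The mean of 12 epithelial markers was 11.14 ± 0.03 (SD, n = 2) in epithelium alone, 11.42 ± 0.10 (n = 2) in co-culture and 10.48 ± 0.52 (n = 4) in adenoma. In the fibroblast groups it was 3.50 ± 0.24 and 3.45 ± 0.18 (n = 3 each). The mean of 12 fibroblast markers was 10.98 ± 0.07 in fibroblasts alone and 10.99 ± 0.18 in co-culture (n = 3 each), against group means of 3.41 to 3.51 elsewhere. In fibroblast samples all 14 macrophage markers also lay above the dim level, with means of 8.44 to 9.08 in co-culture and 8.40 to 9.0 alone, against 3.71 to 4.13 in epithelium and adenoma. Values given for fibroblasts are thus those of cultures that also held macrophage transcripts, and the part of macrophages in them was not tested. In 4 samples, those of P28 and Pl_III, the female transcript Xist lay above the Y-linked Eif2s3y although all animals are labelled male. For members, other S100 genes and listed genes, values without both animals therefore stand beside calls that this ended. Cell type markers outside those lists were not followed there. In bulk samples, fewer cells of a type and less RNA per cell cannot be told apart.

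With co-culture, 2 S100a genes rose in epithelium and none was called in fibroblasts. Of 9 genes, S100a6 and S100a11 rose in co-cultured epithelium and none fell, against 2.71% of all genes tested that rose and 1.32% that fell (4.03% in either direction). The median difference of these 9 genes was 0.63, and that of all genes was -0.02. The 9 were chosen with differences of these arrays in view, so their counts and median are a description and support no rise of the family. In the same comparison the 8 other S100 genes of the array had a median of -0.11, with 3 above 0. In fibroblasts, 0 of 9 passed the limma test in either direction, where 0.00553% of all genes passed, and the median of the 9 was 0.01. An unadjusted p under 0.05 was reached there by 0 of the 9, and by 513 of all 18095 genes tested. In adenoma against epithelium alone, 2 rose and 1 fell, against 22.5% and 18.5% of all genes (41.0% in either direction). In adenoma against co-cultured epithelium 0 rose and 3 fell, against 19.0% and 14.3% (33.3% in either direction). Fibroblasts stood above epithelium alone for 3 genes and below it for 2 (26.5% and 24.2% of all genes, 50.7% in either direction), and against co-cultured epithelium these counts were 1 and 3 (23.9% and 21.2% of all genes, 45.1% in either direction). The 1 gene higher between co-cultures was S100a8, which passed the filter on dim genes only through the fibroblasts. Comparisons that share a group share its samples, so their values are not independent of each other.

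**Figure D1:**
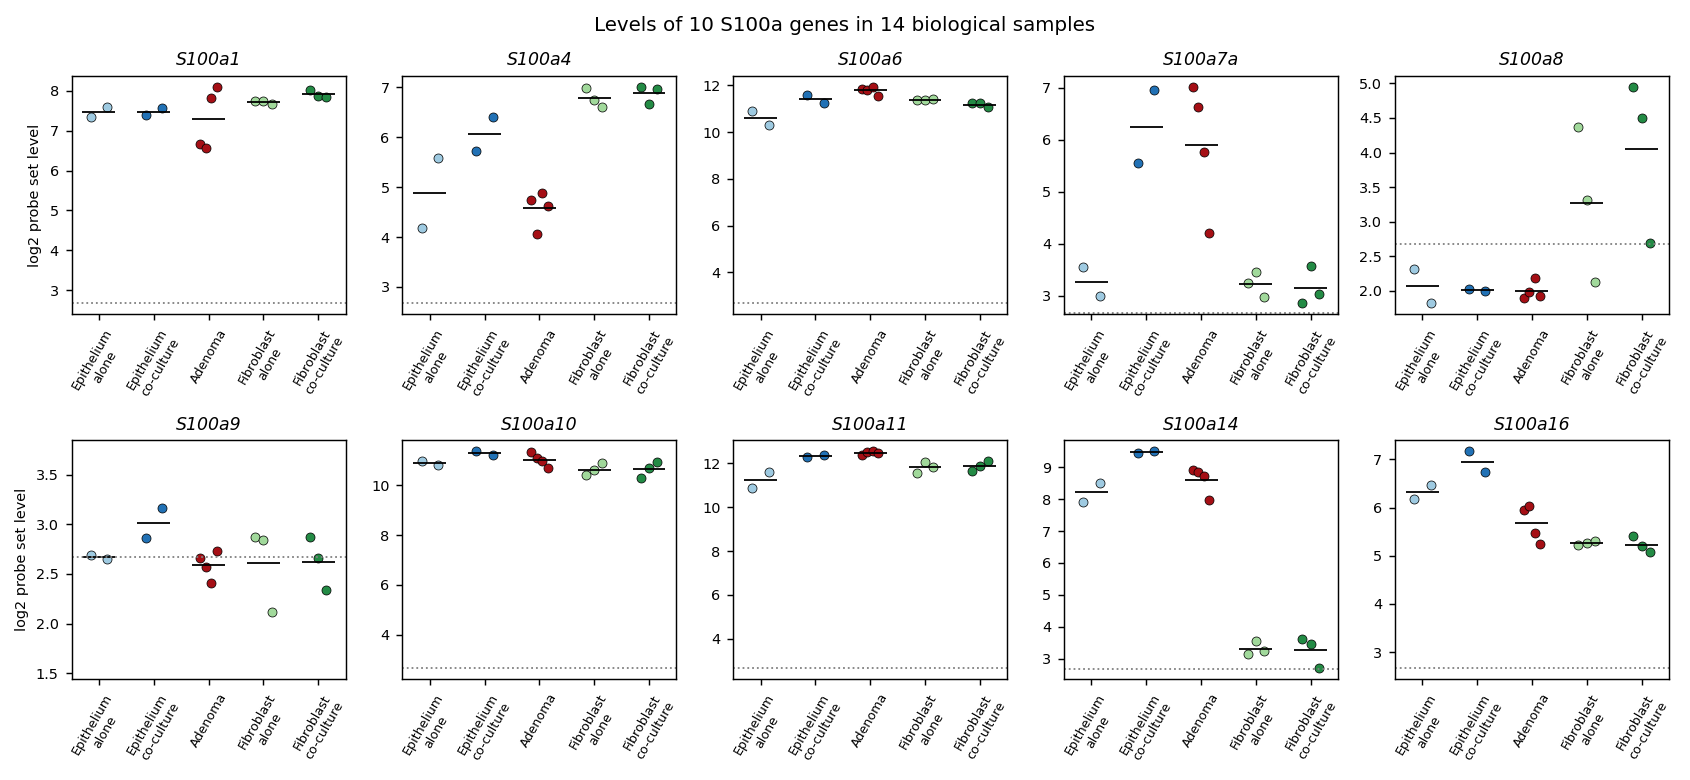
Levels of the 10 S100a genes (log2, vertical axis of each panel) in the 14 biological samples by group, with points for animals, a black line for the group mean and a dotted line at the dim level of 2.67. S100a14 separates both fibroblast groups from every epithelial and adenoma sample, S100a7a is high in co-cultured epithelium and adenoma, and S100a8 lies above the dim level in fibroblast samples only.

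S100a6 (calcyclin) binds annexins and the Cacybp protein, and S100a11 (calgizzarin) binds Anxa1 in many epithelia. S100a6 stood at 10.90 (P28) and 10.29 (P30) in epithelium alone and at 11.60 and 11.25 in co-culture. Adenoma samples held 11.85, 11.81, 11.94 and 11.54, all above both monocultures, and only P36 lay below the higher of the co-cultures. S100a6 was 1.78-fold higher in co-culture than alone (0.83 ± 0.20, limma adjusted p = 0.0434) and 2.28-fold higher in adenoma than in epithelium alone (1.19 ± 0.18, adjusted p = 0.000167). Adenoma minus co-culture was 0.36 ± 0.18, which did not pass (adjusted p = 0.153).

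S100a11 levels were 10.89 and 11.59 alone, 12.29 and 12.39 in co-culture, and 12.36, 12.51, 12.54 and 12.45 in adenoma. All 6 samples of the latter groups lay above both monocultures, and adenoma overlapped co-culture. S100a11 rose 2.14-fold with co-culture (1.10 ± 0.23, adjusted p = 0.0228) and stood 2.34-fold higher in adenoma than in epithelium alone (1.23 ± 0.20, adjusted p = 0.000344). Between adenoma and co-culture it differed by 0.13 ± 0.20 (adjusted p = 0.697, 95% interval -0.31 to 0.57).

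The rises with co-culture rest on 2 animals. With the animal as a replicate block the adjusted p was 0.0156 for S100a6 and 0.00617 for S100a11, while a fit on the epithelial pair of groups alone called neither (0.187 and 0.127). Over 27 alternatives the adjusted p ran from 0.0156 to 0.266 for S100a6 and from 0.00617 to 0.283 for S100a11. The S100a6 call was kept in 2 of 14 fits that each left out 1 sample, with a difference of 0.53 (adjusted p = 0.247) without the P30 monoculture and 1.01 (0.0802) without the P30 co-culture. It was 0.66 (0.266) without the P28 co-culture, and 9 fits without an adenoma or fibroblast sample, which enter the shared spread only, gave 0.0518 to 0.0621. The S100a11 call was lost without the P28 monoculture (0.74, adjusted p = 0.186), the P28 co-culture (1.15, 0.0979) or the P30 co-culture (1.05, 0.133). Without P28 and Pl_III, S100a6 differed by 0.96 (adjusted p = 0.15) and S100a11 by 0.80 (0.283). Both adenoma calls against epithelium alone held in all 27 alternatives.

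**Figure D2:**
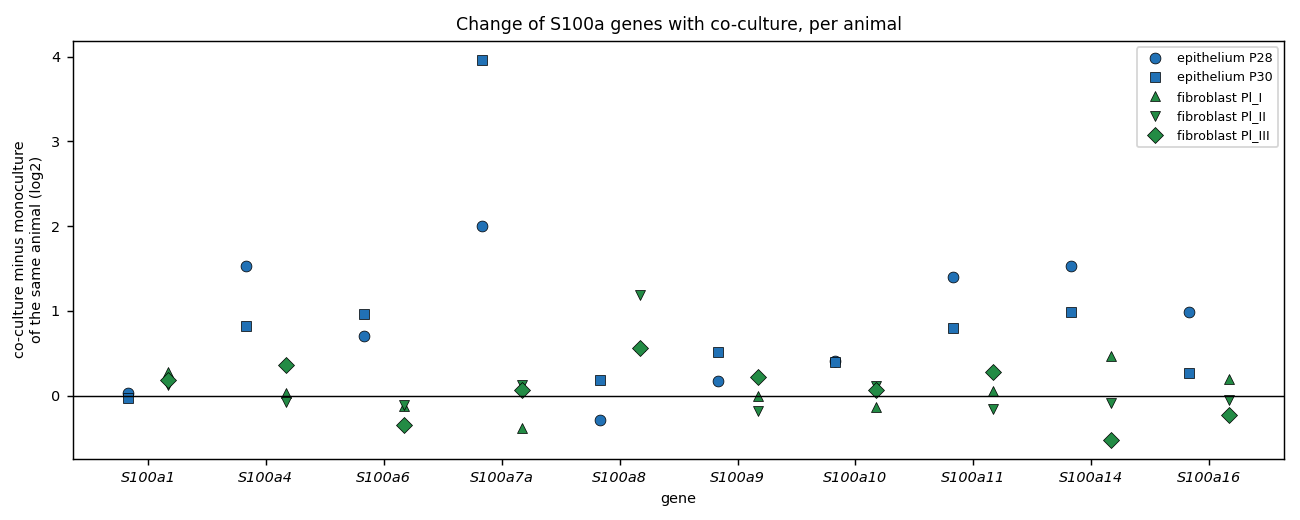
Co-culture minus monoculture of the same animal (log2, vertical axis) for each S100a gene (horizontal axis), with blue points for the 2 epithelial animals and green points for the 3 fibroblast animals. Epithelial points of S100a4, S100a6, S100a7a, S100a9, S100a10, S100a11, S100a14 and S100a16 are all above 0, and fibroblast points other than those of S100a8 lie between -0.52 and 0.46.

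In fibroblasts S100a6 held 11.36, 11.35 and 11.40 alone and 11.24, 11.25 and 11.05 in co-culture, and S100a11 held 11.58, 12.06 and 11.84 alone and 11.63, 11.89 and 12.11 in co-culture. Fibroblasts alone exceeded epithelium alone in S100a6 (0.78 ± 0.19, adjusted p = 0.00396) and S100a11 (0.58 ± 0.21, adjusted p = 0.0366). The former was lost without the P30 monoculture (0.47, adjusted p = 0.0724), and the latter without the P28 monoculture (0.23, 0.438), the Pl_II (0.47, 0.114) or Pl_III monoculture (0.58, 0.0691), or P28 and Pl_III together (0.22, 0.489). S100a11 was also not called with cyclic loess (0.47, 0.078) or with only the compared groups fitted (0.131). Within animals S100a6 moved by -0.13, -0.11 and -0.35, opposite to the 0.70 and 0.96 of the epithelial animals. The difference between both responses was 1.03 ± 0.26 (limma adjusted p = 0.0968), and 0.0321 with the animal as a block. For S100a11 the same difference was 1.04 ± 0.30 (adjusted p = 0.136), and 0.0386 with the block. In that comparison of responses 0 of 9 members passed without the block and 2 with it. Of all genes, 1.11% passed without the block and 3.42% with it. Without the block, an unadjusted p under 0.05 was reached by 3 of the 9, and by 2293 of all 18095 genes tested. Over the alternatives the adjusted p ran from 0.0321 to 0.3 for S100a6 and from 0.0386 to 0.439 for S100a11.

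Among proteins that S100 proteins bind, 9 of a list of 12 were on the array, and 2 rose in co-cultured epithelium and 0 fell (2.71% and 1.32% of all genes). They were Anxa1, a membrane-binding partner of S100a11, which rose 3.91-fold (1.97 ± 0.16, adjusted p = 0.000187), and Anxa5 (1.37 ± 0.23, adjusted p = 0.00691). Ahnak (1.52 ± 0.40, adjusted p = 0.0561) and Sugt1 (0.60 ± 0.15, adjusted p = 0.0531) did not pass, and both passed with the animal as a block (0.00169 and 0.0452), where 7.57% of all genes did (4.03% without it). In adenoma against epithelium alone 6 of 9 rose and 0 fell (22.5% and 18.5% of all genes), and the largest were Anxa6 (4.00 ± 0.42, adjusted p = 1.19e-05), Anxa1 (2.99 ± 0.14, 1.58e-08) and Cacybp, the S100a6-binding subunit of a ubiquitin ligase (1.45 ± 0.14, 4.63e-06). Anxa1 levels ran from 8.70 to 8.72 alone, from 10.53 to 10.83 in co-culture and from 11.61 to 11.92 in adenoma. These ranges did not overlap, and how many of all genes separate likewise was not counted. The median difference of the list was 0.60 with co-culture and 1.26 in adenoma, beside -0.02 and -0.03 over all genes. This list and those below were chosen with earlier results of these data known. Their counts and medians are therefore a description. The Anxa5 call with co-culture was lost without the P28 monoculture (1.17, adjusted p = 0.0766), without the P30 co-culture (1.25, 0.064) and without P28 and Pl_III (1.29, 0.161). A fit on the epithelial pair of groups alone called no gene of the array.

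S100a10 (p11) binds Anxa2 and holds plasminogen and its activator at the cell surface. It lacks a working calcium site, so its partner binding does not wait for calcium. Levels were 10.95 and 10.81 in epithelium alone, 11.35 and 11.20 in co-culture and 11.32, 11.09, 10.96 and 10.67 in adenoma. The within-animal changes with co-culture were alike, 0.41 and 0.40, but the fitted difference did not pass (0.40 ± 0.24, adjusted p = 0.468). Fibroblasts held 10.41, 10.59 and 10.87 alone and 10.28, 10.70 and 10.93 in co-culture, in the same order of animals. Co-cultured fibroblasts stood below co-cultured epithelium (-0.64 ± 0.22, adjusted p = 0.0337), a call lost without the first or the second fibroblast co-culture (-0.46, adjusted p = 0.117; -0.67, 0.0554), without either epithelial co-culture (-0.56, 0.169; -0.72, 0.0798), without P28 and Pl_III (-0.71, 0.0965), and with only the compared groups fitted (0.068).

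Its partner Anxa2 lay between 10.78 and 10.93 alone, 11.32 and 11.40 in co-culture and 10.71 and 11.05 in adenoma. Anxa2 differed by 0.51 ± 0.17 with co-culture (adjusted p = 0.132) and fell by 0.50 from co-culture to adenoma (adjusted p = 0.02), which did not pass without the P28 (-0.46, 0.134) or the P30 co-culture (-0.54, 0.072), or without P28 and Pl_III (-0.46, 0.12). Of 6 plasminogen system genes on the array, 2 rose and 1 fell in co-cultured epithelium, where 2.71% of all genes rose and 1.32% fell. The tissue activator Plat rose 5.57-fold (2.48 ± 0.25, adjusted p = 0.000538) and the urokinase receptor Plaur 3.84-fold (1.94 ± 0.25, adjusted p = 0.00199), while the plasminogen receptor Plgrkt fell by 0.82 (adjusted p = 0.0164). The Plgrkt call was lost without the P30 monoculture (-0.65, adjusted p = 0.105), without either co-culture (-0.74, 0.111; -0.90, 0.0603) and without P28 and Pl_III (-0.92, 0.164), and so was that of Plaur without both animals (1.79, 0.0582). In adenoma against epithelium alone 3 of these 6 genes rose and 1 fell (22.5% and 18.5% of all genes). Those that rose were urokinase, Plau (3.11 ± 0.33, adjusted p = 1.32e-05), Plaur (2.32 ± 0.22, 4.41e-06) and Plat (1.38 ± 0.22, 0.000301). S100a10 itself differed by 0.13 ± 0.21 in adenoma (adjusted p = 0.671).

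S100a7a is a mouse relative of psoriasin, an antimicrobial and chemotactic protein of stressed skin. Its values chose it, so they are described only. Epithelium alone held 3.54 (P28) and 2.99 (P30), and co-culture held 5.54 and 6.95, so both animals rose, by 2.00 and 3.96. Adenoma samples held 7.02, 6.62, 5.75 and 4.20 with P36 the lowest, and P36 lay below both co-cultures. All 6 fibroblast samples stayed between 2.85 and 3.58, which overlapped epithelium alone and lay below every co-culture and adenoma sample. The fitted differences were 2.98 ± 0.73 with co-culture (7.90-fold), 2.63 ± 0.64 in adenoma against epithelium alone, -0.35 ± 0.64 in adenoma against co-culture, and -0.07 ± 0.60 for fibroblasts with co-culture.

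S100a8 and S100a9 stood apart from each other. S100a8 was below the dim level in all 8 epithelial and adenoma samples (1.82 to 2.32). In fibroblasts it held 4.36, 3.31 and 2.13 alone and 4.95, 4.50 and 2.69 in co-culture, in the order Pl_I, Pl_II, Pl_III. Animals thus differed more than conditions, and each animal was higher in co-culture (by 0.59, 1.19 and 0.56). The fitted change with co-culture was 0.78 ± 0.57 (unadjusted p = 0.194, adjusted p = 1). S100a8 entered the test only through the fibroblast groups, where it is high, so its differences between cell types are given as a description and support nothing. With epithelium below the dim level, co-cultured fibroblasts stood at least 2.59-fold higher (mean 4.05 against the dim level). The fitted difference was 2.03 ± 0.63 (adjusted p = 0.0201), and it was 1.20 ± 0.63 (adjusted p = 0.138) between the monocultures. The first of these calls was lost without either epithelial co-culture (2.05, adjusted p = 0.0843; 2.02, 0.0857), without the Pl_I co-culture (1.58, 0.0722), without the Pl_II co-culture (1.81, 0.0638) and with only the compared groups fitted (0.0528). The second became a call without the Pl_III monoculture (1.77, 0.0272) and without P28 and Pl_III (2.02, 0.00452).

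S100a9, the calprotectin partner, lay between 2.12 and 3.17 in all samples, above the dim level in 7 of 14, and no comparison called it. Its group mean was highest in co-cultured epithelium (2.87 and 3.17), which overlapped the fibroblast samples (2.12 to 2.88). In adenoma against co-culture S100a9 differed by -0.43 ± 0.22 (adjusted p = 0.165), and by -0.58 without P28 and Pl_III, which leaves only P30 in the epithelial groups. S100a9 entered the test only through the wild-type epithelial groups, where its means are highest. Its differences from adenoma and fibroblasts are therefore a description and support nothing.

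Myeloid markers were set beside S100a8. The mean of 14 macrophage markers in fibroblasts was 8.40, 8.49 and 9.0 alone and 8.64, 8.44 and 9.08 in co-culture for Pl_I, Pl_II and Pl_III, so Pl_III was highest for the markers and lowest for S100a8. The mean of 12 neutrophil markers lay between 2.64 and 3.02 in fibroblasts and between 2.83 and 3.19 elsewhere. In fibroblasts 5 of the 12 neutrophil markers had a mean above the dim level alone and 6 in co-culture. Highest of these were the collagenase Mmp8 (3.62 to 5.78 alone and 3.26 to 6.55 in co-culture, 2.19 to 2.95 elsewhere) and the growth factor receptor Csf3r (3.36 to 4.19 and 3.36 to 4.80). Camp stood at means of 2.31 and 3.07, with groups that overlapped, while Elane, Ngp, Ltf, Retnlg, Cxcr1 and Stfa2l1 were at or below the dim level in both groups. The part of myeloid cells in the S100a8 values was not tested.

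**Figure D3:**
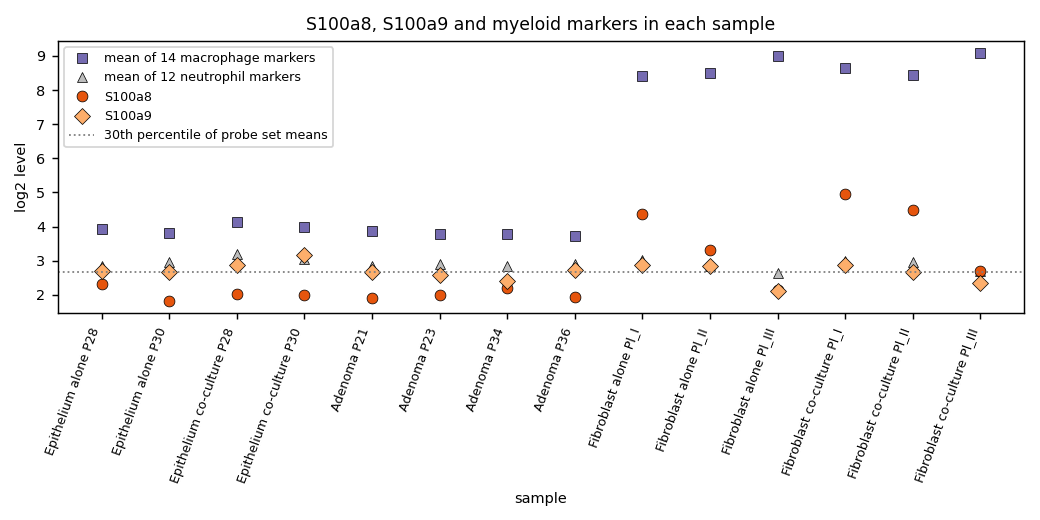
Log2 level of S100a8 and S100a9 and mean log2 level of 14 macrophage and 12 neutrophil markers (vertical axis) in each of the 14 samples (horizontal axis), with the dim level dotted. Macrophage markers are high in all 6 fibroblast samples, and S100a8 is lowest in Pl_III, where they are highest.

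Of 5 receptors for extracellular S100 proteins, 0 were called in co-cultured epithelium by limma. An unadjusted p under 0.05 was reached by 2 of them there, Tlr4 (0.84 ± 0.28, adjusted p = 0.137, and 0.0151 with the animal as a block) and Cd36 (-1.19 ± 0.43, adjusted p = 0.167). Of all 18095 genes tested, 3065 reached it in that comparison. Tlr4, the endotoxin receptor that calprotectin can engage, was at 2.56 to 2.63 in epithelium alone, 3.28 to 3.58 in co-culture and 6.41 to 6.80 in adenoma, and rose in adenoma (3.98 ± 0.24, adjusted p = 1.45e-07). As epithelium alone was below the dim level, this is given as at least 14.9-fold, the adenoma mean of 6.57 against the dim level. Cd36, a scavenger receptor and fatty acid carrier, fell by 4.12 in adenoma (adjusted p = 3.23e-06). Ager was between 3.79 and 4.60 in all samples and differed by -0.18 ± 0.18 with co-culture (adjusted p = 0.701) and by -0.30 ± 0.16 in adenoma (adjusted p = 0.161).

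A list of innate and acute genes often induced together with calprotectin had 16 genes tested. In co-cultured epithelium 1 rose, the interleukin 1 antagonist Il1rn (1.64 ± 0.33, adjusted p = 0.0192), and 0 fell (2.71% and 1.32% of all genes). In adenoma against epithelium alone 2 rose and 2 fell (22.5% and 18.5% of all genes), namely Wfdc18 (3.43 ± 0.82, adjusted p = 0.00489), lactoferrin, Ltf (1.56 ± 0.21, 6.95e-05), and the antimicrobial lectins Reg3b (-3.78 ± 0.41, 1.5e-05) and Reg3g (-2.32 ± 0.60, 0.00762). The Il1rn call was lost without either epithelial monoculture (1.52, adjusted p = 0.133; 1.75, 0.0635), without the P28 co-culture (1.30, 0.15) and without P28 and Pl_III (1.19, 0.366). In adenoma the calls of Wfdc18 (3.04, 0.0571) and Reg3g (-1.65, 0.123) were lost without the P28 monoculture, and also without P28 and Pl_III (0.116 and 0.106). Fibroblasts exceeded epithelium in 6 of the 16 genes and lay below it in 3 when both were alone (26.5% and 24.2% of all genes). The largest were the acute-phase protein Saa3 (8.38 ± 0.81, adjusted p = 2.73e-06), the cytokine Il1b (6.51 ± 0.48, 2.68e-07) and the neutrophil chemokine Cxcl5 (6.35 ± 1.34, 0.00167), in the cell type that held all samples with S100a8 above the dim level.

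S100a14 and S100a16 are neighbours on the chromosome, and both stood higher in wild-type epithelium than in fibroblasts. S100a14 held 7.91 and 8.51 in epithelium alone, 9.44 and 9.50 in co-culture and 8.90, 8.86, 8.72 and 7.97 in adenoma. Fibroblasts held 2.71 to 3.61, near the dim level and far below every epithelial sample. Fibroblasts were lower than epithelium when both were alone (-4.91 ± 0.32, adjusted p = 8.24e-08) and, by 74.0-fold, when both were co-cultured (-6.21 ± 0.32, 1.13e-08). Both co-cultures exceeded both monocultures of epithelium, by 1.52 and 0.99 within animals, but the test did not pass (1.25 ± 0.35, adjusted p = 0.0738, and 0.057 with the animal as a block). Over the alternatives the adjusted p ran from 0.0379 to 0.448. Without adenoma P36 it was 0.0379 and without the Pl_III fibroblast co-culture 0.0448, since these samples enter the shared spread.

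In adenoma S100a14 fell by 0.86 against co-culture (adjusted p = 0.0474), and 13 of 27 alternatives lost that call, with adjusted p from 0.0184 to 0.183. Leaving out P34 or P36 gave -0.89 (adjusted p = 0.0649) and -0.64 (0.0882), and leaving out the P28 or P30 co-culture gave -0.89 (0.162) and -0.82 (0.183). It was -0.89 (0.121) without P28 and Pl_III, and the adjusted p was 0.0579 with only the compared groups fitted and 0.0542 with no filter on dim genes. With the animal as a random block the adjusted p was 0.0561, and without 1 of 4 fibroblast samples it was 0.0548 to 0.0579. The 12 epithelial markers had means of 9.97 to 10.96 in adenoma and 11.35 to 11.49 in co-culture, and their part in this difference was not tested.

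S100a16 held 6.18 and 6.47 alone, 7.17 and 6.74 in co-culture, and 5.95, 6.03, 5.48 and 5.24 in adenoma. These groups did not overlap, and how many of all genes separate likewise was not counted. Fibroblasts held 5.23, 5.26 and 5.31 alone and 5.42, 5.20 and 5.07 in co-culture, level with the lowest adenoma. Among the 9 tested members it was the only one called lower in adenoma than in either epithelial group, with differences of -0.65 ± 0.22 against monoculture (adjusted p = 0.033) and -1.28 ± 0.22 against co-culture (adjusted p = 0.000812). The former was lost without P34 (-0.58, adjusted p = 0.0738), P36 (-0.50, 0.0654) or either epithelial monoculture (-0.80, 0.0589; -0.50, 0.222), without P28 and Pl_III (-0.80, 0.0851) and with only the compared groups fitted (0.0909), and the latter held in all 27 alternatives. The rise with co-culture (0.63 ± 0.25, within-animal 0.99 and 0.27) did not pass (adjusted p = 0.226). Fibroblasts stood below epithelium alone (-1.06 ± 0.23, adjusted p = 0.00217) and in co-culture (-1.72 ± 0.23, 6.1e-05).

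S100a4 (metastasin, also called fibroblast-specific protein) binds non-muscle myosin and is used as a marker of fibroblasts and macrophages. Fibroblasts held 6.98, 6.75 and 6.61 alone and 7.01, 6.67 and 6.96 in co-culture. Epithelium alone held 4.19 and 5.58, co-culture 5.72 and 6.40, and adenoma 4.74, 4.06, 4.88 and 4.61. All 6 fibroblast samples lay above every other sample, and adenoma lay below both co-cultures. S100a4 was 3.72-fold higher in fibroblasts than in epithelium alone (1.90 ± 0.36, adjusted p = 0.00083). Between co-cultures the difference was 0.82 ± 0.36 (adjusted p = 0.0862), which passed without either epithelial monoculture (0.0251 each) and with only the compared groups fitted (0.0418).

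In co-cultured epithelium both animals exceeded their own monoculture in S100a4, by 1.53 and 0.83. The fitted difference of 1.18 ± 0.40 did not pass (adjusted p = 0.139), and it passed with the animal as a block (adjusted p = 0.0335) and without the P30 monoculture (1.87, 0.0235), in a range of 0.0235 to 0.673 over the alternatives. Fibroblast markers averaged 3.49 to 3.53 in the monocultures and 3.39 to 3.43 in the co-cultures. The 14 macrophage markers averaged 3.94 (P28) and 3.82 (P30) in the monocultures and 4.13 and 4.00 in the co-cultures. Of these 14, 2 were called higher and 0 lower (2.71% and 1.32% of all genes), namely Mrc1 (1.34 ± 0.29, adjusted p = 0.025) and Laptm5 (1.26 ± 0.25, 0.0165). Cd68 was not called (1.03 ± 0.28, 0.07). Differences were above 0 for 8 of the 14. Adgre1, Itgam, Tyrobp, Fcer1g, Csf1r and C1qa lay lower, by -0.61 to -0.07. Of 10 neutrophil markers tested, 1 was called higher, Ly6g (3.31 ± 0.53, 0.00575), and 0 lower. The calls of Mrc1, Laptm5 and Ly6g were not followed in fits without single samples or without P28 and Pl_III. The part of fibroblasts, macrophages and neutrophils in the S100a4 values was not tested. Adenoma lay below co-culture (-1.48 ± 0.34, 2.80-fold, adjusted p = 0.00539), a call lost without the P30 co-culture (-1.14, adjusted p = 0.0828). Against epithelium alone adenoma differed by -0.31 ± 0.34 (adjusted p = 0.53), and by -1.0 (adjusted p = 0.0351) without the P28 monoculture.

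S100a1, the family member of heart and muscle that tunes calcium release, was called nowhere. Epithelium held 7.35 and 7.59 alone and 7.38 and 7.56 in co-culture, and fibroblasts 7.74, 7.74 and 7.68 alone and 8.02, 7.87 and 7.85 in co-culture. Adenoma split into 6.66 (P21) and 6.56 (P23) against 7.83 (P34) and 8.10 (P36), where the other samples ranged from 7.35 to 8.02. The titles of P21 and P23 carry the mark T2, which the labels do not explain. The same pairs of animals did not overlap for S100a16 (5.95 and 6.03 against 5.48 and 5.24), S100a7a (7.02 and 6.62 against 5.75 and 4.20), S100a14 (8.90 and 8.86 against 8.72 and 7.97) or S100a10 (11.32 and 11.09 against 10.96 and 10.67). The mean of the 12 epithelial markers split the same way (10.90 and 10.96 against 10.08 and 9.97). These splits were seen in the values and were not tested, nor was the part of the epithelial markers in them. For S100a4, S100a6, S100a8, S100a9 and S100a11 the pairs overlapped. The share of all genes with such a split was not counted, so nothing particular to these members is read from it.

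**Figure D4:**
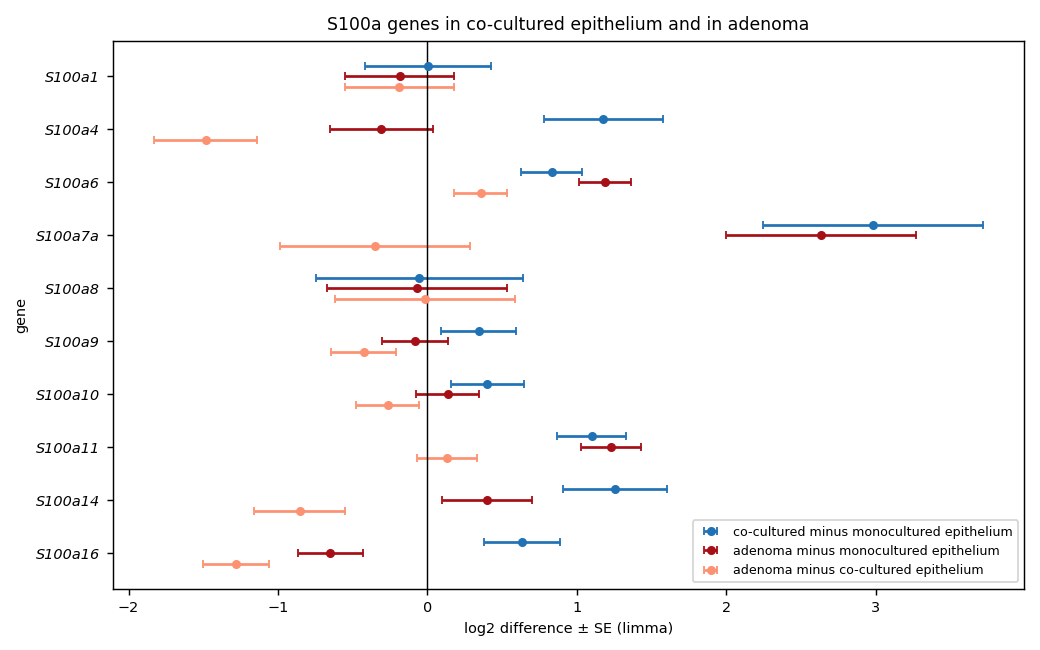
Log2 difference ± SE from limma (horizontal axis) for each S100a gene (vertical axis), for co-cultured minus monocultured epithelium, adenoma minus monoculture and adenoma minus co-culture. S100a6 and S100a11 are above 0 in both contrasts with monoculture, and S100a4, S100a14 and S100a16 are below 0 in adenoma against co-culture.

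The order of the group means differed by member. S100a6 and S100a11 were lowest in epithelium alone and highest in adenoma. Adenoma and co-culture, neighbours in that order, overlapped for both genes. S100a7a, S100a9, S100a10, S100a14 and S100a16 were highest in co-cultured epithelium, and S100a1, S100a4 and S100a8 in co-cultured fibroblasts. Next in order came adenoma for S100a7a, S100a10 and S100a14, and only for S100a14 did it not overlap co-culture. The fibroblast groups were neighbours in the order for all 10 members, and they overlapped for 8. The exceptions were S100a1 and S100a6, and neither was called. S100a1 was higher in co-culture (7.85 to 8.02 against 7.68 to 7.74). S100a6 was higher in monoculture (11.35 to 11.40 against 11.05 to 11.25). The share of all genes whose groups did not overlap was not counted, for the fibroblast groups or any others. Nothing particular to S100a1, S100a6 or another gene is therefore read from these separations or those given above. Technical repeat arrays of P21 and P34 differed for the 10 genes by a median of 0.18 and 0.06, and by at most 0.25 (S100a4 in P21), which is below the differences called.

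The array held 8 further S100 genes, and 1 of them rose in co-cultured epithelium and 0 fell (2.71% and 1.32% of all genes). This was S100a3, a cysteine-rich protein of hair, which went from 3.40 (P28) and 3.67 (P30) to 4.78 and 5.46. It rose 3.00-fold (1.58 ± 0.23, adjusted p = 0.00351) and stayed called in each of the 14 fits that left out 1 sample, but not without P28 and Pl_III (1.79, adjusted p = 0.052) or with only the compared groups fitted (0.0799). In fibroblasts S100a3 moved by -0.54, -0.25 and -0.23, and the difference between the responses was 1.93 ± 0.30 (adjusted p = 0.0118). That call was lost without the P28 monoculture (1.79, adjusted p = 0.067). Adenoma held 4.03 to 4.44, above monoculture (0.69 ± 0.20, adjusted p = 0.0147) and below co-culture (-0.90 ± 0.20, 0.00404). The former was lost without the P28 monoculture (0.55, 0.14) or P28 and Pl_III (0.55, 0.0976), and the latter without the P30 co-culture (-0.55, 0.082).

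Other relatives fell in adenoma. S100a5 lies between S100a4 and S100a6 on the chromosome, and its level went from 6.79 and 7.61 in epithelium alone to between 3.02 and 3.99 in adenoma (-3.56 ± 0.32, adjusted p = 3.14e-06), while S100a6 beside it rose. S100g is calbindin-D9k, the vitamin D-dependent calcium carrier of enterocytes. It held 8.63 and 10.71 alone, 6.03 and 9.31 in co-culture and 3.89 to 5.38 in adenoma. S100g was 33.8-fold lower in adenoma than in epithelium alone (-5.08 ± 0.78, adjusted p = 0.00021). Its difference from co-culture (-3.08 ± 0.78, 0.00878) did not pass without the P30 co-culture (-1.44, 0.166). Both epithelial animals fell with co-culture, by 2.59 and 1.40 on the log2 scale, which passed with the animal as a block (adjusted p = 0.0425) and ranged from 0.0425 to 0.931 over the alternatives. Of all 8 genes, 1 rose and 2 fell in adenoma against epithelium alone (22.5% and 18.5% of all genes), and 0 rose and 3 fell against co-culture (19.0% and 14.3%).

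Neighbours on chromosome 3 did not all move alike. In the RefSeq gene table the order ran S100a1, S100a13, S100a14, S100a16, S100a3, S100a2, S100a4, S100a5, S100a6, S100a7a, S100a8 and S100a9, then S100a7l2 past 1 other gene, and then S100a11 and S100a10 past 54 protein-coding genes. Neighbouring S100a14 and S100a16 differed by 0.40 ± 0.30 and -0.65 ± 0.22 in adenoma against epithelium alone. S100a11 rose in adenoma (1.23) while its neighbour S100a10 was at 0.13. Of the epidermal differentiation complex, the cornified envelope genes between and beside these genes, 25 were on the array and 15 were tested. None of the 15 was called in co-cultured epithelium by limma. An unadjusted p under 0.05 was reached by 3 of the 15, and by 3065 of all 18095 genes tested. With the animal as a block, loricrin, Lor (2.28, adjusted p = 0.00581), and Sprr1a (1.09, 0.0485) were called, where 7.57% of all genes were. Lor also passed without P28 and Pl_III (2.58, 0.0263) and without the P28 co-culture (3.35, 0.0221). In adenoma against epithelium alone 1 rose, involucrin, Ivl (1.15 ± 0.39, adjusted p = 0.034), and 0 fell (22.5% and 18.5% of all genes). That call was lost without the P28 monoculture (0.82, 0.271), P34 (0.94, 0.0766), P36 (0.95, 0.0749) or P28 and Pl_III (0.82, 0.323), with cyclic loess (1.01, 0.0637) and with only the compared groups fitted (0.0995). Fibroblasts alone lay above epithelium alone in 0 of the 15 and below it in 2 (26.5% and 24.2% of all genes). Those 2 were Sprr1a (-6.04 ± 1.10, adjusted p = 0.000584) and Sprr2b (-3.56 ± 0.27, 3.45e-07).

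The genes whose levels ran most alike over the 14 samples differed by member. These samples come from 9 animals and 3 cell types, which they share, so the correlations are a description with no p. S100a14 ran with Fam83g (Pearson r = 0.995), the desmosome-linked plakin Ppl (0.99) and the laminin chain Lamb3 (0.99). S100a11 ran with Ajuba (0.93), a LIM protein of cell junctions, cyclin D1, Ccnd1 (0.92), and Plaur (0.92). S100a7a ran with Crlf3 (0.97), Tmem40 (0.95) and the immediate early receptor Nr4a1 (0.94). S100a6 ran with Hmces (0.92), Nif3l1 (0.92) and Abcc4 (0.91). S100a8 ran with Brinp3 (0.99), Kcne4 (0.98) and the nucleic acid sensor Zbp1 (0.98), all higher in fibroblasts. S100a16 ran with C2cd4b (0.97), the uroplakin Upk1b (0.97) and Reg4 (0.96), a lectin of secretory cells. S100a4 ran with Adgrd1 (0.95), Man2b2 (0.94) and Lhfpl2 (0.94), S100a1 with Fbxo44 (0.94), Usp48 (0.93) and 2810021J22Rik (0.90), S100a10 with Ly6g6e (0.92), Abi3 (0.90) and Rnf19a (0.87), and S100a9 with Agfg2 (0.86), Il13ra1 (0.82) and Tmem74b (0.82).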

How the data were processed

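The values used are the authors' deposited log2 levels per probe set, which the submitters' processing notes credit to RMA (it corrects background, equalises arrays and summarises probes). The sources used here name neither the array library nor the genome build. RMA equalises arrays, so a shift of most transcripts one way would be hidden. For 1-colour GeneChip WT arrays, 150 ng of RNA was amplified, per the labels' protocols. Of 41345 probe sets, 23521 had 1 symbol in the platform annotation, 1814 several and 16010 none. A gene was read from its probe set of highest mean, and 18095 of 22180 genes were tested, those whose highest group mean passed the 30th percentile. All 10 members passed, S100a8 only through the fibroblast groups and S100a9 only through the wild-type epithelial groups.

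Groups followed the labels. Repeat arrays of P21 and P34 were averaged, which left 14 samples of 9 animals. The third fibroblast monoculture names Pl_III in its title and Pl_II in its source, and the title was followed. The technical repeat note of the P34 arrays points to other sample codes, and their shared animal was followed. Limma 3.58.1 in R 4.3.3 fitted 5 group means with 1 shared spread (total degrees of freedom 11.7), with empirical Bayes, 2-sided tests and Benjamini-Hochberg adjustment over all genes. The functions were tested on simulated data. Separate animals are named, but with 2 to 4 a group p-values measure the spread between few samples.

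The labels give mono- and co-cultures the same animals. Their deviations from the group means correlated within an animal at 0.328 (epithelium) and 0.623, 0.51 and 0.786 (fibroblasts), and the animal entered an alternative as a replicate block. Members, gene lists and motifs were chosen with earlier results of these data known. Named genes were all members, the other S100 genes, up to 3 called genes of a list with the largest differences, partners and receptors whether called or not, and the 3 genes with the highest Pearson r with a member. Promoter windows are RefSeq's, build GRCm38.p6. Alternatives were other filters, cyclic loess, a fit of only those groups compared, a trended robust prior, single adenoma arrays, random and fixed blocks, other thresholds, and leaving out samples or P28 and Pl_III.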

Additional observations from a re-analysis of the deposited data

Results flagged for a closer look

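S100a6 moved opposite ways in the co-cultured cell types. It rose in both epithelial animals (0.70 and 0.96) and was lower in co-culture in all 3 fibroblast animals (-0.13, -0.11 and -0.35), so the responses differed by 1.03 ± 0.26. The limma test of that difference did not pass (adjusted p = 0.0968) and passed with the animal as a block (adjusted p = 0.0321). The adjusted p ranged from 0.0321 to 0.3 over 27 alternatives. The share of all genes that moved opposite ways in every animal was not counted. Nothing particular to S100a6 is therefore read from these signs.

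For 5 genes of the lists the limma test of the difference between epithelial and fibroblast responses passed, where 1.11% of all genes did. They were 2 of 9 partners, 2 of 6 plasminogen system genes and 1 of 8 other S100 genes. None passed of 5 receptors, 15 epidermal differentiation complex genes and 16 innate and acute genes. The lists were chosen with earlier results of these data known. Among S100 partners those that passed were Anxa1 (1.99 ± 0.21, adjusted p = 0.00187) and Anxa5 (1.51 ± 0.29, adjusted p = 0.036). In the plasminogen system they were Plat (2.83 ± 0.33, adjusted p = 0.00319) and Plaur (1.97 ± 0.32, adjusted p = 0.0161). The fifth was S100a3, with 1.93 ± 0.30 (adjusted p = 0.0118). Without P28 and Pl_III none of the 5 passed: the values were 1.78 for Anxa1 (adjusted p = 0.0857), 1.43 for Anxa5 (0.275), 3.03 for Plat (0.0773), 1.84 for Plaur (0.141) and 2.19 for S100a3 (0.0815). Without the P28 monoculture alone, Anxa5 (1.31, adjusted p = 0.163), Plaur (1.71, 0.0844) and S100a3 (1.79, 0.067) did not pass. Without the P28 or the P30 co-culture, Anxa5 (1.62, 0.0846; 1.39, 0.141) and Plaur (2.09, 0.0517; 1.86, 0.0715) did not pass. Anxa5 was also not called without adenoma P23 (0.0537) or without 1 of 4 fibroblast samples (0.064 to 0.0813).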

How the results depend on the processing

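No member called in a comparison changed sign under any of the 28 alternatives (17 pairs of member and comparison). In many of these the sign could not change, so this says little. Other filters, thresholds and variance priors, and fits of only the compared groups, leave a member's difference as it was. So does leaving out a sample of a group that is not compared. In co-cultured against monocultured epithelium 2 of 9 members were called. This count was 1 with a 2-fold minimum, with cyclic loess and with the first array of P21 and P34 only, 0 with only the compared groups fitted, 0 without P28 and Pl_III, and 0 to 3 when single samples were left out. Over all genes these counts were 729 in the reported fit, 408 with the 2-fold minimum, 0 with only the compared groups and 68 without P28 and Pl_III. For the difference between the responses the count went from 0 to 1 at an adjusted p under 0.1 and to 2 with the replicate block (619 genes in all, against 200). For fibroblasts against epithelium, 5 calls in monoculture became 3 with the 2-fold minimum, and 4 calls in co-culture became 2 to 5 without single samples. For adenoma against co-culture 3 calls became 1 to 3 without single samples. The block changed the S100a4 call in epithelium (adjusted p = 0.0335) and, as a random block, that of S100a14 in adenoma (0.0561), besides the responses of S100a6 and S100a11 (0.0321 and 0.0386), and no other member's call.

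With 2 epithelial animals a condition, small rises could not be told from the spread: the 95% interval for S100a10 with co-culture was -0.13 to 0.93. S100a8 in epithelium and S100a9 in most samples lay near the dim level, where RMA values are compressed.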
